A study of Mus musculus with 95 samples.

Results

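The genes described here are 9 genes of mast cells and basophils, measured in regenerating mouse bone marrow: Mcpt4, Cma1, Tpsb2, Cpa3, Mcpt8, Fcer1a, Ms4a2, Cd200r3 and Il4. They are 9 of the 53465 gene entries counted. They were chosen by measured values of these data, as mast cell and basophil genes whose counts are lower at late than at early weeks after transplant in the population HPC-1. Their HPC-1 values over the weeks are therefore given as a description with no test, and tests of these 9 genes are given only for libraries that this choice did not use. Of the 95 libraries, Cpa3 had counts in 89, Il4 in 66, Fcer1a in 51, Ms4a2 in 43, Mcpt8 in 42, Cma1 in 25, Tpsb2 in 25, Mcpt4 in 11 and Cd200r3 in 11.

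The libraries are bulk RNA-seq of 3 sorted populations, HSC (hematopoietic stem cells) and HPC-1 and HPC-2, names in use for progenitor fractions of the same compartment, from mice labelled B6.SJL and 8 to 12 weeks of age. Untreated mice gave 8 HSC, 8 HPC-1 and 7 HPC-2 libraries, called steady state. Recipients given 900 cGy and a graft of 8000 LSK cells (lineage-negative, Sca-1+, c-Kit+ marrow cells) gave 3 libraries per population at each of 8 times, weekly from 3 to 6 weeks and then at 8, 10, 13 and 16 weeks, so 24 transplanted libraries per population. Marrow was enriched for c-Kit before the sort, a receptor that mast cells carry too, and the labels give 1 gate for all 3 populations (LSK, CD48-, CD150+), so they do not say how HPC-1 and HPC-2 were told apart. Whether libraries in 1 group are from different animals is not given in the labels, and p-values measure the spread between these libraries, which may be technical.

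Total counts ran from 3551908 to 8492759 per library (median 5628592), and 3827 to 15697 genes had counts. Levels below are CPM, a gene's count scaled by the total count of its library. By a chi-square over genes, 6 pairs of libraries (12 libraries) differed little beyond counting noise, at 1.24 to 4.50 per degree of freedom against 15.1 for the next pair and a median of 119 over 4465 pairs. They are called near-identical below. Within HPC-2, a pair joined replicate 1 of 4 weeks and replicate 2 of 5 weeks, and within HPC-1 another joined the third replicates of 8 and 10 weeks. Across populations, replicate 1 of HPC-1 at 5 weeks matched replicate 2 of HPC-2 at 8 weeks. HPC-2 replicate 5 of the untreated mice matched HPC-1 replicate 2 of 13 weeks, and HPC-2 replicate 7 of the untreated mice matched the untreated HPC-1 library of that number. HSC replicate 1 of the untreated mice matched replicate 1 of HPC-2 at 13 weeks. The 2 libraries of a pair carry different labels, so results that turn on them are given with and without them. In 11 libraries the profile was nearer to the mean of another population than to its own: 5 HSC, 1 HPC-1 and 5 HPC-2, including the 3 HPC-2 libraries matched above to HPC-1, which were nearest to HPC-1. Fewer than 10000 genes were detected in 12 libraries, 5 HSC and 7 HPC-2. In these bulk samples, fewer cells of a type and less RNA per cell cannot be told apart.

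Mast cells and basophils are granulocytes that arise from bone marrow progenitors and answer IgE bound to the high-affinity receptor FceRI. Mast cells mature in tissues and store proteases in heparin-rich granules, chiefly chymases, tryptases and a carboxypeptidase, while basophils circulate and carry a smaller set with the marker protease of mouse basophils, Mcpt8. Transcription factors that bind GATA sites, Gata2 above all, are needed for both lineages. Among the 9 genes, Mcpt4 and Cma1 encode chymases of connective tissue mast cells, Tpsb2 a tryptase, Cpa3 mast cell carboxypeptidase, and Mcpt8 a granule protease of basophils. Fcer1a and Ms4a2 encode the alpha and beta chains of FceRI, Cd200r3 an activating receptor of mast cells and basophils, and Il4 the type 2 cytokine interleukin 4.

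Of the granule proteases, 3 lie in the chymase locus on chromosome 14 of GRCm38, all on the minus strand. Cma1 is at chr14:55941451-55944675, Mcpt4 at chr14:56059629-56062313 and Mcpt8 at chr14:56082166-56085273, a stretch of 144 kb with gaps of 115.0 and 19.9 kb. The others lie apart: Tpsb2 at chr17:25366305-25369098, Cpa3 at chr3:20215620-20242181, Fcer1a at chr1:173221284-173227214, Ms4a2 at chr19:11615523-11623719, Cd200r3 at chr16:44943678-44981380 and Il4 at chr11:53602982-53618669. Some reads could be shared with other genes: 5.48% of the 50-base stretches of Mcpt4 transcripts also occur in Cma2 or Mcpt9, and 5.38% of those of Cma1 in Gm48934. Cma2 itself stayed at or under 1.15 CPM in every HPC-1 library.

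The RefSeq promoters (GRCm38.p6) of 4 proteases are shown because Cma1 and Mcpt4 were high at the same weeks in HPC-1 and their neighbour Mcpt8 was not, with Cpa3 as the protease found in most libraries. Each is the 250 bases before the start, 5′ to 3′ on the gene's minus strand, and capitals mark GATAA or, for the other strand, TTATC.
Cma1, chr14:55944676-55944925: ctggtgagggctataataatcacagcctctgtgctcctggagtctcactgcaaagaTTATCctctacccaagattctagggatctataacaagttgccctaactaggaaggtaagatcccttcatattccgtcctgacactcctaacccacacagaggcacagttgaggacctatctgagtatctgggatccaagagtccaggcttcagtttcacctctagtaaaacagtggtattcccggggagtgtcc
Mcpt4, chr14:56062311-56062560: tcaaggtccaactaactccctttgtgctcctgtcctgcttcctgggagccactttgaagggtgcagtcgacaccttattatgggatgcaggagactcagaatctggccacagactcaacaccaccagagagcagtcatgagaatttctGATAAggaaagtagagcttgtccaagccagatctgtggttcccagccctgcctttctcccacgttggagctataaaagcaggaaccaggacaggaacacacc
Mcpt8, chr14:56085198-56085447: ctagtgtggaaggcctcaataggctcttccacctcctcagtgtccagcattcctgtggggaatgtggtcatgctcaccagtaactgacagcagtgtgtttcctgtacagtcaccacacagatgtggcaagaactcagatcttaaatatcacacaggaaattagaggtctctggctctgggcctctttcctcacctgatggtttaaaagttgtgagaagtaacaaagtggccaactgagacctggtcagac
Cpa3, chr3:20242182-20242431: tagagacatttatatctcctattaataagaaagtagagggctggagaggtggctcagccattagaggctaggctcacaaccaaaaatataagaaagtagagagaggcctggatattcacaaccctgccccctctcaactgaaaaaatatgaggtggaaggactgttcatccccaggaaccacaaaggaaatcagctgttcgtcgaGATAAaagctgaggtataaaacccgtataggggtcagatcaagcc

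The letters GATAA, on either strand, occurred 1 time in the promoters of Cma1, Mcpt4, Cpa3 and Fcer1a, 2 times in that of Cd200r3 and 3 times in that of Ms4a2. None was in the windows of Mcpt8 or of the 2 starts of Il4. Of 32851 promoters of this length, 22.6% hold these letters. A match is a description of the sequence only.

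In HPC-1, the chymases and the tryptase had their highest mean levels at 4 and 5 weeks and were low or at 0 at steady state and from 8 weeks on. Mcpt4 had no counts in any of the 8 steady-state HPC-1 libraries, which allows a level of up to 0.0805 CPM over the group at 3 counts. At 3 weeks it was at 0, 4.02 and 0 CPM. At 4 weeks its libraries had 55.3, 95.1 and 182 CPM and at 5 weeks 69.1, 24.1 and 97.3 CPM. At 6 weeks they had 3.01, 0 and 0.368 CPM, and none of the 12 libraries from 8 to 16 weeks had a count, which allows up to 0.0509 CPM. The 6 libraries of 4 and 5 weeks therefore lay above every other HPC-1 library for Mcpt4.

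Cma1 had 447, 511 and 435 CPM at 4 weeks and 267, 341 and 297 CPM at 5 weeks. At 3 weeks its 3 libraries had 63.1, 261 and 0 CPM, and at 6 weeks 29.5, 0 and 178 CPM. From 8 to 16 weeks 9 of 12 libraries had counts, with a median of 5.69 and a highest value of 75.9 CPM, and all 3 at 13 weeks were at 0. At steady state 3 of 8 libraries had counts, the highest 46.9 CPM. The 4- and 5-week libraries did not overlap with any other HPC-1 library, although the highest 3-week library lay just below the lowest of them.

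Tpsb2 had 312, 293 and 450.2 CPM at 4 weeks and 155, 74.7 and 229 CPM at 5 weeks. The 3-week libraries had 19.0, 208 and 0 CPM, so 1 of them lay among those of 5 weeks. From 6 to 16 weeks 8 of 15 libraries had counts and the highest was 45.0 CPM, and at steady state 4 of 8 had counts and the highest was 13.6 CPM. Summed over Mcpt4, Cma1 and Tpsb2, the 6 libraries of 4 and 5 weeks had 439.95 to 1067 CPM. The same sum was 82.1, 473 and 0 CPM at 3 weeks, at most 199.7 CPM at 6 to 16 weeks and at most 51.8 CPM at steady state. The 3 genes were thus high together, with a wide spread at 3 weeks, where replicate 2 was high for Cma1 and Tpsb2 but not for Mcpt4 and replicate 3 had none of the 3.

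**Figure D1:**
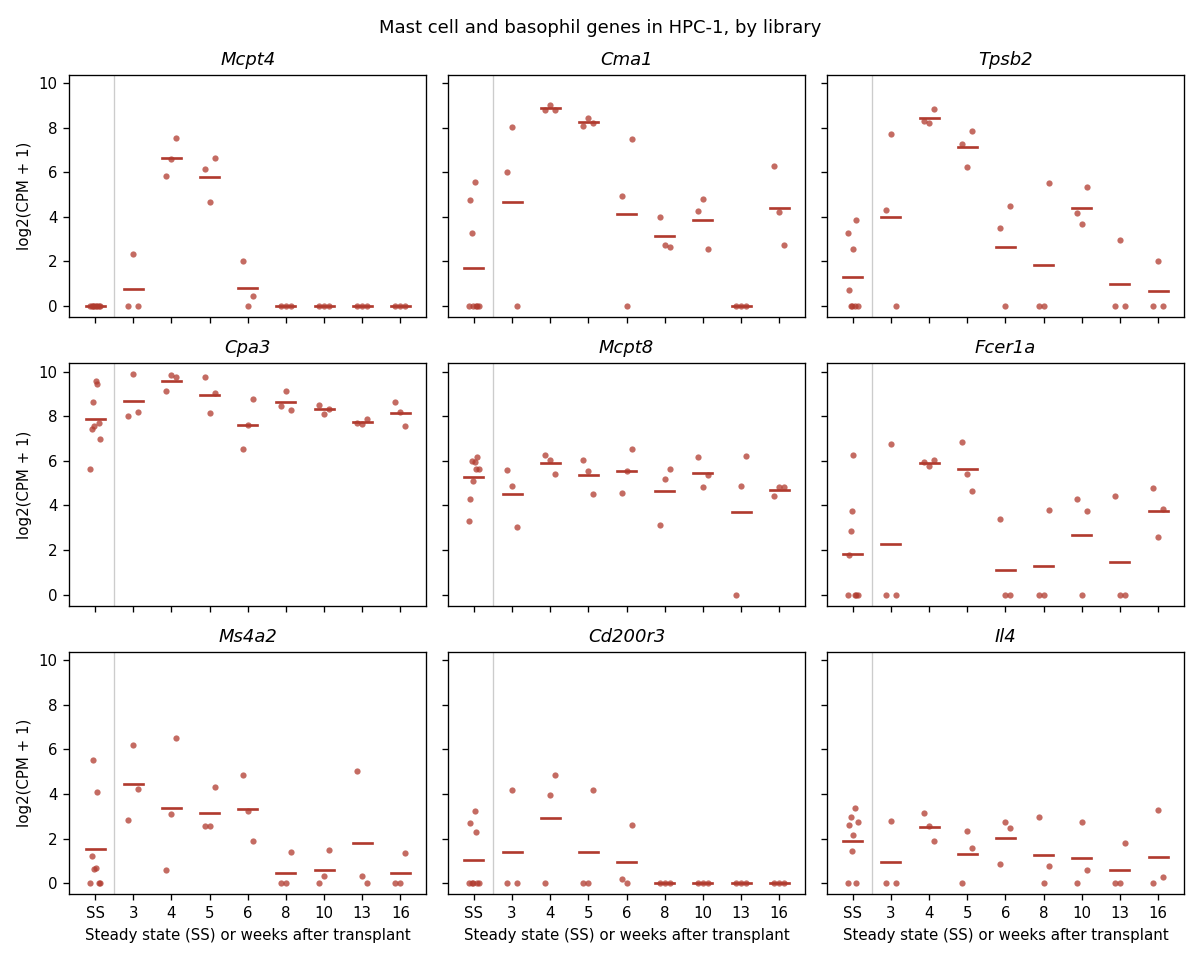
Level of each of the 9 genes in every HPC-1 library, as log2(CPM + 1), at steady state (SS, 8 libraries) and at 3 to 16 weeks after transplant (3 libraries each); points are libraries and bars are means of the log2 values. Mcpt4 and Cma1 are highest in the 6 libraries of 4 and 5 weeks and Tpsb2 in the 3 libraries of 4 weeks, while Mcpt8 shows no such peak.

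Cpa3 was present in all 32 HPC-1 libraries and its weeks differed less. It had 560.4, 927 and 852 CPM at 4 weeks and 855, 284 and 518 CPM at 5 weeks. At 13 weeks it had 206, 201 and 232 CPM, the lowest group mean. At steady state its lowest, median and highest values were 47.9, 198 and 765 CPM, a range that took in most of the transplanted libraries. Every week's range overlapped with that of the next week in order of mean level.

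Mcpt8, the basophil protease 19.9 kb from Mcpt4, had counts in 31 of 32 HPC-1 libraries and was not higher at 4 and 5 weeks alone. Its lowest, median and highest values were 8.87, 48.6 and 70.2 CPM at steady state. They were 7.18, 45.5 and 74.5 CPM at 3 to 5 weeks and 0, 28.1 and 91.6 CPM at 6 to 16 weeks. The 3 ranges overlapped almost wholly, so of the 9 genes Mcpt8 had one of the flattest courses in HPC-1.

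The IgE receptor genes were also more often found at early weeks. Fcer1a had 60.7, 53.7 and 65.4 CPM at 4 weeks and 115, 41.2 and 24.1 CPM at 5 weeks. At 3 weeks only replicate 2 had counts, with 107 CPM, and from 6 to 16 weeks 8 of 15 libraries had them, at up to 26.5 CPM. At steady state 4 of 8 had counts, with 74.6 CPM in replicate 5 and at most 12.4 CPM in the others. The lowest library of 5 weeks thus lay below the highest ones of 16 weeks and of steady state.

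Ms4a2 had counts in all 12 HPC-1 libraries of 3 to 6 weeks, from 0.506 to 90.1 CPM, both of these at 4 weeks. From 8 to 16 weeks 6 of 12 libraries had counts. The highest of those had 32.1 CPM, at 13 weeks, and the others were at or under 1.77 CPM. At steady state 5 of 8 had counts, up to 44.6 CPM, so the early and the steady-state libraries overlapped.

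Cd200r3 and Il4 were low throughout HPC-1. Cd200r3 had counts in 4 of 9 libraries of 3 to 5 weeks, at 14.4 to 27.9 CPM, in 2 of the 3 at 6 weeks, and in none of the 12 from 8 to 16 weeks. At steady state 3 of 8 libraries had it, at 3.89 to 8.40 CPM. Il4 had counts in 22 of 32 libraries and never passed 9.24 CPM. Its median was 4.27 CPM at steady state, 2.76 CPM at 3 to 5 weeks and 0.698 CPM at 6 to 16 weeks, with overlapping ranges.

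Per kilobase of exon, the order in HPC-1 changed between steady state and 4 weeks. At steady state the mean CPM per kb was 214 for Cpa3, 44.1 for Mcpt8, 12.0 for Fcer1a, 9.33 for Cma1, 3.25 for Il4, 2.81 for Ms4a2, 2.18 for Tpsb2, 0.371 for Cd200r3 and 0 for Mcpt4. At 4 weeks it was 514 for Cpa3, 426 for Cma1, 221 for Tpsb2, 99.9 for Mcpt4, 60.2 for Mcpt8, 60.1 for Fcer1a, 11.6 for Ms4a2, 4.20 for Il4 and 2.35 for Cd200r3. The basophil protease was thus second at steady state and behind 3 mast cell proteases and Cpa3 at 4 weeks. Summed over the 9 genes, the mean CPM at 3 to 5 weeks over that at 6 to 16 weeks was 1.74 on the log2 scale, and 1.69 without the near-identical libraries.

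The course of other mast cell genes in HPC-1 was read from a list of 14 further granule genes and 19 further surface receptors, in a fit across all 13078 genes with 0.199% called at an adjusted p under 0.05, of which 0.115% lower and 0.0841% higher with time. The lists were drawn up with results of these data known, and the fit uses the weeks and libraries on which the members were chosen, so its calls are no independent support. Of 8 granule genes with enough counts to test, 1 was called lower with time and none higher, and of 15 receptors 2 lower and 1 higher, while none of 13 genes of FceRI signalling, 4 cytokines and 11 transcription factors was called. The 3 genes called lower passed the count filter only through the early weeks where they are high, and they are given by their values.

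Among granule contents Tpsg1, a membrane-bound tryptase, had counts in 7 of 9 libraries of 3 to 5 weeks, at 3.00 to 12.7 CPM, and in none of 15 later and 8 steady-state ones. Mrgprb2, the mast cell receptor for basic secretagogues, had counts in 6 of 9 libraries of 3 to 5 weeks, at 23.2 to 41.9 CPM. It was in 2 of the 3 libraries of 6 weeks, at 4.43 and 3.68 CPM, and in none from 8 weeks on or at steady state. Its relative Mrgprb1 had counts in 5 of 9 libraries of 3 to 5 weeks, at 1.78 to 42.6 CPM, and in no other HPC-1 library. Cd63, a tetraspanin of granule membranes present in many cell types, rose over the weeks by 0.56 (SE 0.09, edgeR adjusted p = 0.00599) per doubling of weeks on the log2 scale, and its adjusted p was 0.0311 without the near-identical libraries.

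Further genes named with mast cells had varied courses. Tpsab1, the tryptase next in kind to Tpsb2, had counts in 4 of 32 HPC-1 libraries and at most 2.63 CPM. Il1rl1, the interleukin 33 receptor, had a mean of 21.5 CPM at 3 to 5 weeks and 3.78 CPM at 6 to 16 weeks, with counts in 7 of 9 and 5 of 15 libraries. Slc18a2, the vesicular amine transporter that loads histamine, was in every HPC-1 library, from 2.35 to 121 CPM, with its highest value at 8 to 16 weeks. Kit, the stem cell factor receptor, had medians of 90.8 CPM at steady state, 76.9 CPM at 3 to 5 weeks and 132 CPM at 6 to 16 weeks.

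**Figure D2:**
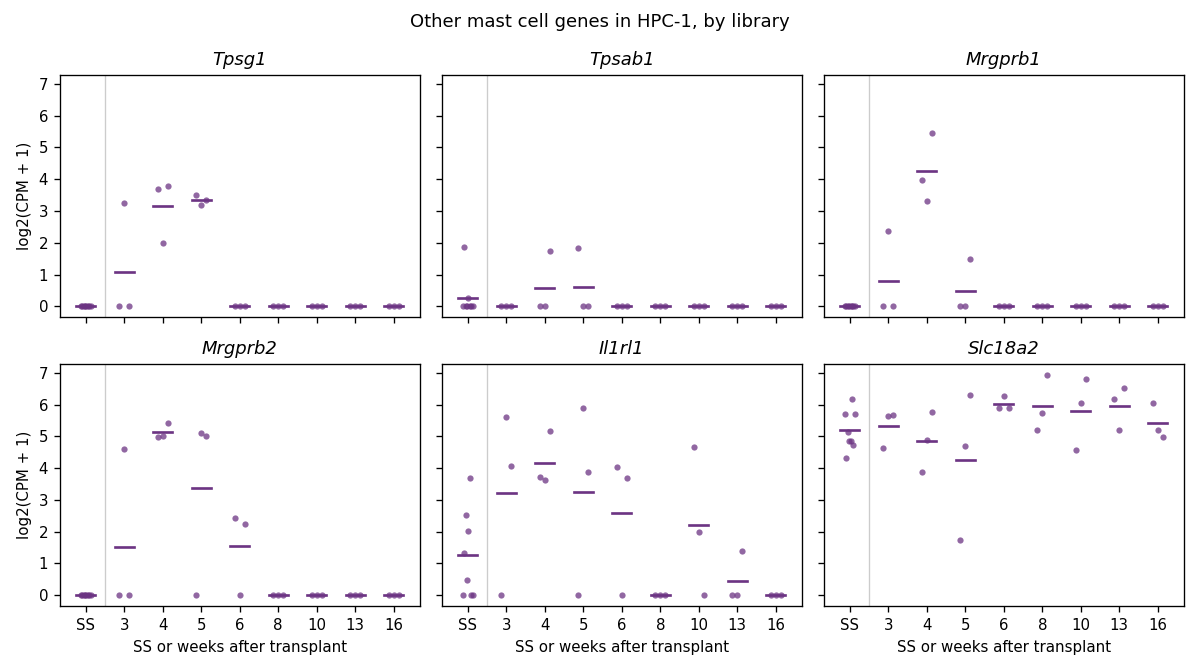
Level of 6 other mast cell genes in every HPC-1 library, as log2(CPM + 1), at steady state (SS, 8 libraries) and at 3 to 16 weeks after transplant (3 libraries each); points are libraries and bars are means of the log2 values. Tpsg1, Mrgprb1 and Mrgprb2 have no counts at steady state or from 8 weeks on, and Slc18a2 has counts in every library.

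Marker lists of whole cell types in HPC-1 had the following courses. Of 15 mast cell markers, all 15 had counts at 3 to 5 weeks, 13 at 6 to 16 weeks and 12 at steady state. Their sum ran from 477 to 2586 CPM (median 1510) at 3 to 5 weeks, from 414 to 845 CPM (median 514) at 6 to 16 weeks and from 228 to 1050 CPM (median 367) at steady state. These lists include members, so their sum is in part the same measurement.

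Of 11 basophil markers, 10 had counts at 3 to 5 weeks, with a sum of 85.4 to 319.5 CPM (median 174). All 11 had counts at 6 to 16 weeks, with 45.6 to 128 CPM (median 87.4), and at steady state, with 33.8 to 169 CPM (median 84.8). The basophil protease Prss34 was found in 2 of 9, 1 of 15 and 1 of 8 of those libraries and the chemokine receptor Ccr3 in 0 of 9, 2 of 15 and 2 of 8. Of 7 eosinophil markers, all 7 had counts at 3 to 5 weeks, at 0 to 38.5 CPM in sum, and 5 at 6 to 16 weeks, at 0 to 43.9 CPM, and eosinophil peroxidase, Epx, was in 1 of 9 and 0 of 15 libraries. The 12 neutrophil and monocyte progenitor markers all had counts, with sums of 1389.8 to 4583 CPM at 3 to 5 weeks and 1045 to 9869 CPM at 6 to 16 weeks. The part of other cells in the sorted HPC-1 in the values of the 9 genes was not tested.

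Outside HPC-1 the chymases and the tryptase were almost absent. In 32 HSC libraries Cma1 had no counts, which allows up to 0.0157 CPM over the population, Mcpt4 reached 0.216 CPM in 1 library and Tpsb2 0.210 CPM in 2 libraries at most. In HPC-2, 1 library stood apart: 8 weeks replicate 2 had 65.9 CPM of Mcpt4, 283 CPM of Cma1, 161 CPM of Tpsb2 and 831 CPM of Cpa3. It is the library that is near-identical to HPC-1 5 weeks replicate 1, which had 69.1, 267, 155 and 855 CPM of the same genes. Leaving it out, no HPC-2 library had Mcpt4, Cma1 was at most 0.186 CPM, and Tpsb2 was found only in steady-state replicates 5 and 7, at 8.01 and 15.7 CPM, the pair with HPC-1 profiles.

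**Figure D3:**
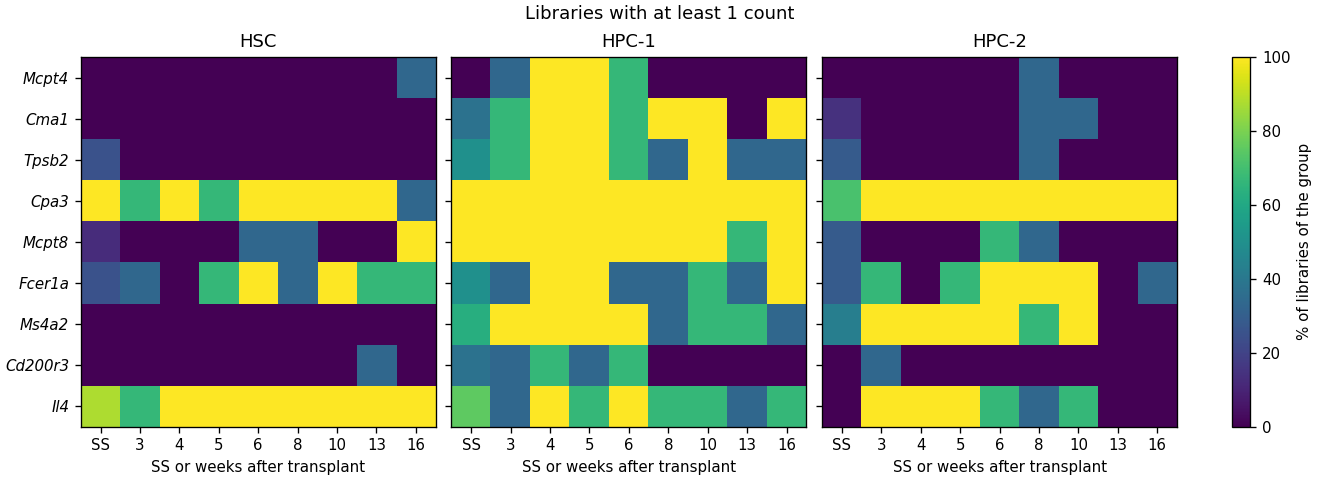
Share of the libraries of each group with at least 1 count of each gene, in percent by colour. Each population has a steady-state column (SS; 8 libraries for HSC, 8 for HPC-1, 7 for HPC-2) and 8 columns for 3 to 16 weeks after transplant (3 libraries each). Mcpt4 and Tpsb2 are in all HPC-1 libraries of 4 and 5 weeks, Il4 is in most HSC libraries, and Ms4a2 is in no HSC library.

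At steady state, Mcpt8 and Cpa3 were higher in HPC-1 than in HSC by their means, and Il4 was higher in HSC, but 0 of 4 members with enough counts were called, against a background of 0.599% of 11348 genes. Mcpt8 was in 8 of 8 HPC-1 libraries, at 44.1 CPM ± 21.9 (SD), and in 1 of 8 HSC libraries, at a mean of 0.246 CPM (log2 difference 7.40, SE 1.97, edgeR adjusted p = 0.0889). All HPC-1 libraries lay above all HSC libraries. Mcpt8 passed the count filter through HPC-1, where it is high, so its calls against HSC in any fit add nothing to its counts. Cpa3 had 325 CPM ± 269 (SD, n = 8) in HPC-1 and 17.7 CPM ± 33.6 (SD, n = 8) in HSC (edgeR adjusted p = 0.262), and its ranges overlapped through HSC replicate 1, at 98.9 CPM. Il4 had 3.99 CPM ± 3.30 in HPC-1 and 86.3 CPM ± 58.8 in HSC (SD, n = 8 each, edgeR adjusted p = 0.225), and Fcer1a had counts in 4 and 2 libraries (edgeR adjusted p = 1.00). At an unadjusted p under 0.05, 449 genes and 3 of the 4 members passed.

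These steady-state results turn on a few libraries. The libraries nearer another population in this fit were HSC replicate 1 and HPC-2 replicates 5 and 7. Without them edgeR called all 3, among 160 of 12053 genes: Mcpt8 at 7.21 (adjusted p = 0.0223), Cpa3 at 5.72 (adjusted p = 0.0453) and Il4 at -4.58 (adjusted p = 0.0443) as HPC-1 minus HSC on the log2 scale. The libraries left out were marked by their expression, over genes that include these 3, so the calls are no independent support. HSC replicate 1 had 0 CPM of Il4 and 98.9 CPM of Cpa3. Without the near-identical libraries Mcpt8 alone of the members was called (7.08, edgeR adjusted p = 0.0419), among 118 of 11938 genes. Mcpt8 was also called when HPC-2 replicate 1 or replicate 6, which share the fit, was left out (edgeR adjusted p = 0.0465 and 0.0489). The fits without 1 library called 22 to 131 genes. DESeq2 called all 3 on the full set, and its share over all genes is not given here.

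When HPC-1 was set against HPC-2 at steady state, 0 of 4 members were called, against a background of 0.0264%. By edgeR, 861 genes had an unadjusted p under 0.05, Il4 among them, and DESeq2 called Il4. Mcpt8 was in 8 of 8 HPC-1 libraries and in 2 of 7 HPC-2 libraries, replicate 5 at 26.6 CPM and replicate 7 at 77.2 CPM (edgeR adjusted p = 0.952). These are the libraries that are near-identical to HPC-1 libraries. Without the near-identical libraries Mcpt8 was in 7 of 7 HPC-1 libraries, at 40.3 CPM ± 20.7 (SD), and in 0 of 5 HPC-2 libraries. EdgeR then called it, among 1535 of 11938 genes. Of those 5 HPC-2 libraries, 4 had between 3827 and 9809 genes. Il4 was in 6 of 8 HPC-1 and 0 of 7 HPC-2 libraries (edgeR adjusted p = 0.0851). It was called without the near-identical libraries, and when only HPC-2 replicate 7 or HSC replicate 1 was left out. In these fits both genes passed the count filter without HPC-2, so their calls add nothing to their counts.

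Between HSC and HPC-2 at steady state, Il4 was the 1 member called of 4 tested, against a background of 1.16%. Its HSC libraries had 0 CPM in replicate 1 and 35.8 to 190 CPM in the other 7, with a median of 77.2 CPM over all 8, and no HPC-2 library had a count, so it passed the count filter without HPC-2. Over the groups, Il4 was at least 1252-fold higher in HSC, set against 3 counts in the pooled HPC-2 libraries. A difference of Il4 here was known beforehand and HPC-2 had no counts, so its call (edgeR adjusted p = 0.00777) adds nothing to these counts. HSC replicate 1, the HSC library without Il4, is near-identical to an HPC-2 library, HPC-2 13 weeks replicate 1. Without near-identical libraries all 7 HSC libraries had Il4. The absence in HPC-2 stands beside few detected genes: of the 5 HPC-2 libraries outside the near-identical pairs, 4 had between 3827 and 9809 genes. The numbers of the descriptions run in sets of 1 library per population. With a block by these sets the log2 difference of Il4 was 11.64, against 11.97 without it. Its edgeR adjusted p was then 0.0728, so it was not called. The part of low gene detection in the HPC-2 zeros was not tested.

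After transplant, the members split the HSC and HPC-2 libraries in opposite directions: Cpa3 and Ms4a2 were lower in HSC and Il4 was higher. These were 3 of 5 members tested, in a fit with week as a term and a background of 5.32% of 14811 genes called. Ms4a2 passed the count filter only through HPC-2, where it is high, so its call adds nothing to its counts. Cpa3, in 20 of 24 HSC and 24 of 24 HPC-2 libraries, had 0, 13.3 and 92.1 CPM as its lowest, median and highest HSC values and 3.39, 127 and 831 CPM in HPC-2. The log2 difference was -3.13 (SE 0.58, edgeR adjusted p = 0.000302). At 6 of 8 weeks the ranges of the 3 HSC and 3 HPC-2 libraries did not overlap, 6 and 16 weeks being the exceptions. Without the near-identical libraries the difference was -3.01, and without libraries nearer another population -2.45 (edgeR adjusted p = 0.0162).

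Ms4a2 had no counts in any of the 24 transplanted HSC libraries, nor in the 8 of steady state. In HPC-2 it had counts in 17 of 24, with a median of 7.59 and a highest value of 43.1 CPM, so it was at least 456-fold lower in HSC than in HPC-2, set against 3 counts in the pooled HSC libraries. The HPC-2 libraries without it were all 6 of 13 and 16 weeks and 1 of 8 weeks. At 13 and 16 weeks 4903 to 10375 genes were detected. The other IgE receptor gene did not show this split: Fcer1a had counts in 14 of 24 libraries of each population, at means of 17.6 CPM ± 23.3 in HSC and 26.9 CPM ± 39.4 in HPC-2 (SD; log2 difference -0.13, SE 1.14, edgeR adjusted p = 0.974). Mcpt8 had counts in 5 HSC and 3 HPC-2 libraries (edgeR adjusted p = 0.925).

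Il4 had counts in 23 of 24 transplanted HSC libraries, with a lowest, median and highest value of 0, 54.0 and 185 CPM. It had counts in 14 of 24 HPC-2 libraries, with a median of 3.19 and a highest value of 23.7 CPM. The log2 difference was 4.02 (SE 0.92, edgeR adjusted p = 0.00426), and 3.66 without the near-identical libraries (edgeR adjusted p = 0.0132). From 5 weeks on, all HSC libraries of a week lay above all HPC-2 libraries of that week, and at 3 and 4 weeks they overlapped.

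**Figure D4:**
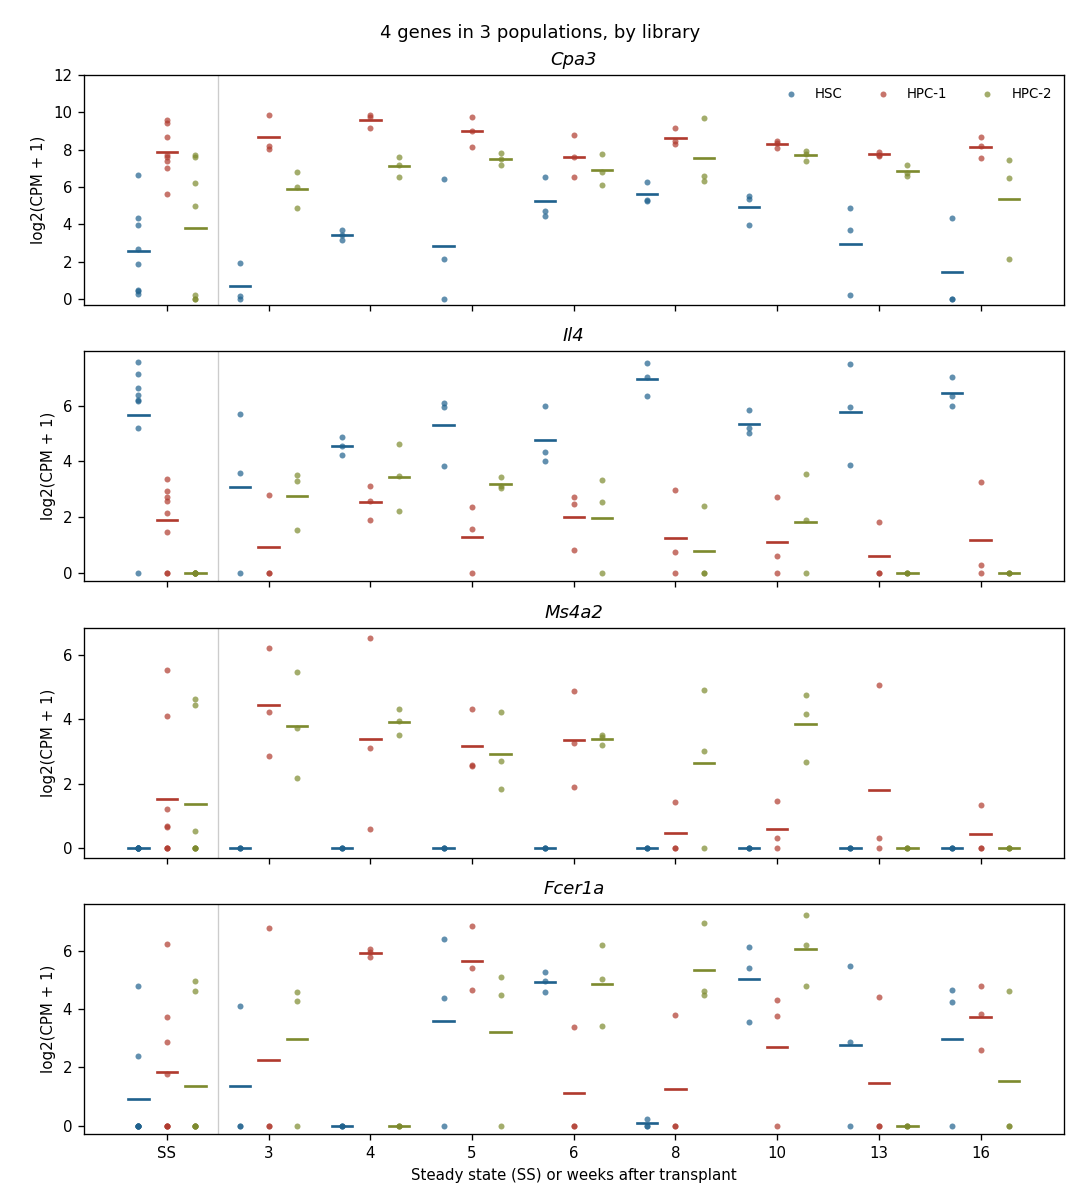
Levels of Cpa3, Il4, Ms4a2 and Fcer1a in every library of HSC, HPC-1 and HPC-2, as log2(CPM + 1), at steady state (SS; 8, 8 and 7 libraries) and at 3 to 16 weeks after transplant (3 libraries each); points are libraries and bars are means of the log2 values. By mean CPM, Cpa3 is lowest in HSC, but its HSC and HPC-2 ranges overlap at steady state and at 6 and 16 weeks. Il4 is highest in HSC from 5 weeks on, and Ms4a2 has no counts in HSC.

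Over the weeks, none of 4 members tested was called in HSC, against a background of 0.237%, and none of 4 in HPC-2, against 0.490%. By edgeR, 1504 genes in HSC and 1311 in HPC-2 had an unadjusted p under 0.05, and DESeq2 called 0 of 4 members in each. In HSC the slope per doubling of weeks was 4.02 (SE 1.18) for Mcpt8, which had counts in 5 of 24 libraries, the highest of them 78.6 CPM at 16 weeks (edgeR adjusted p = 0.163). It was 0.93 (SE 0.41) for Il4 (edgeR adjusted p = 0.400) and 0.29 (SE 1.05) for Cpa3 (edgeR adjusted p = 0.948). Without HSC 8 weeks replicate 2, Mcpt8 had an edgeR adjusted p of 0.0490. It had counts in 0 of 9 HSC libraries of 3 to 5 weeks and passed the count filter only through later weeks. Its call therefore adds nothing to its counts. In HPC-2 the slope was -2.44 (SE 0.98) for Il4 (edgeR adjusted p = 0.342) and -1.43 (SE 0.87) for Ms4a2 (edgeR adjusted p = 0.651).

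The course of Il4 differed between the populations. In HSC its mean was 30.4 CPM ± 23.9 at 3 to 5 weeks (n = 9) and 76.4 CPM ± 56.2 at 6 to 16 weeks (SD, n = 15). In HPC-2 it had counts in 14 of 18 libraries of 3 to 10 weeks and in 0 of 6 of 13 and 16 weeks, the libraries with 4903 to 10375 genes. The HSC slope minus the HPC-2 slope was 4.39 (SE 0.93, edgeR adjusted p = 0.00313), where 7.04% of all genes were called and the median gene differed by 0.34. Without the near-identical libraries it was 4.07 (edgeR adjusted p = 0.0113). Without libraries under 10000 genes it was 3.46 and the call was lost (edgeR adjusted p = 0.0817). DESeq2 also called Mcpt8 and Ms4a2 in this fit, which edgeR did not.

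Transplanted against steady-state libraries, 0 of 4 members were called in HSC, against a background of 0.155%, and 0 of 6 in HPC-2, where 0% of genes were called by edgeR. At an unadjusted p under 0.05, 835 genes but no member passed in HSC and 1649 genes and 1 member in HPC-2, and DESeq2 called 0 members in HSC. In HPC-2 that member was Il4, in 0 of 7 steady-state and 14 of 24 transplanted libraries (edgeR adjusted p = 0.119, called by DESeq2 at adjusted p = 0.00160). Without HPC-2 8 weeks replicate 2, the library with the mast cell proteases, Mcpt8 and Tpsb2 were called lower after transplant (-6.16 and -7.53 on the log2 scale, both at edgeR adjusted p = 0.0492). The steady-state libraries with counts of either gene were replicates 5 and 7, and without the near-identical libraries 0 of 4 members tested were called.

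Some other mast cell and basophil genes also differed between transplanted HSC and HPC-2, in both directions. Of 19 surface receptors 15 were tested and 3 were lower in HSC, against 2.06% of all genes, and 2 higher, against 3.26%. Il1rl1 was in 3 HSC and 18 HPC-2 libraries of 24 each (edgeR adjusted p = 0.00130) and the integrin gene Itgb7 in 11 and 20 (edgeR adjusted p = 0.00656). Csf2rb2, a receptor chain for interleukin 3, was in 3 and 10 (edgeR adjusted p = 0.0243; 0.113 without the near-identical libraries). Cd63 was higher in HSC, at 737 against 412 CPM (edgeR adjusted p = 0.000153), as was Cd200, at 10.5 against 3.19 CPM (edgeR adjusted p = 0.0310; 0.0746 without the near-identical libraries). Il1rl1 and Itgb7 were thus in more libraries of HPC-2, the population that also had Ms4a2, but both had counts in HSC too. As a whole the receptor list leaned neither way: 8 of the 15 tested were higher in HSC. The list median was 0.008 on the log2 scale, against 0.011 for all genes.

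Of 11 transcription factors 10 were tested and 2 were lower in HSC, none higher, with a list median of -0.77 against 0.01 for all genes. Gata1, a factor of erythroid, megakaryocyte and mast cell lineages, had 91.1 CPM in HSC and 258 CPM in HPC-2 (edgeR adjusted p = 0.0107). Gata2 had 74.0 and 192 CPM (edgeR adjusted p = 0.00173). Of 14 genes of FceRI signalling, all tested, 1 was lower in HSC, the adaptor Lat2 (edgeR adjusted p = 0.0215; 0.0551 without libraries nearer another population). None of 6 tested granule genes and 4 tested cytokines was called.

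Markers of other lineages differed between the same libraries. Of 7 erythroid markers 2 were lower in HSC, Klf1 at 21.7 against 167 CPM and Car1 at 63.0 against 2690 CPM, and of 3 eosinophil markers tested, Siglecf, in 5 against 17 of 24 libraries (edgeR adjusted p = 0.000112, 1.83e-05 and 0.0108). Of 6 stem cell markers 4 were higher in HSC, Procr with 65.4 against 1.74 CPM among them (edgeR adjusted p = 9.99e-07). Of 5 megakaryocyte markers 1 was higher in HSC, Pf4, at 1341 against 713 CPM (edgeR adjusted p = 0.00691), and none of 12 neutrophil and monocyte progenitor markers was called. The part of these lineages in the difference of the members was not tested.

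The 5 genes most like the summed members over the 95 libraries, by Pearson's r of log2(CPM + 1), were Ccl4 (0.715), Ramp1 (0.710), Pycard (0.704), Cd69 (0.672) and Nme4 (0.640). Over the 32 HPC-1 libraries they were Arid3b (0.657), Gzmb (0.638), Ccl2 (0.637), Lgals1 (0.590) and Cyp11a1 (0.585). Without near-identical libraries, 3 of the first 5 and 3 of the second 5 were again among the 5 most alike. These values describe libraries that share populations, weeks and depth, and carry no test.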

How the data were processed

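RNA-seq counts of 95 libraries (HSC, HPC-1 and HPC-2, in 27 groups by labels) were used. The values are raw read counts per gene as the authors deposited them. Per the labels' protocols, libraries were made with SMART-Seq v4 and Nextera XT. Per the submitters' processing notes, the tools were Trimmomatic 0.36, HISAT2 2.0.5, Picard and featureCounts, with GRCm38/mm10. The annotation release and strand setting are not given in the sources used here. No gene symbol was given for 3433 of 53465 entries.

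CPM was computed from library totals. Tests used edgeR 4.0.16 (quasi-likelihood, filterByExpr, TMM, robust fit) in R 4.3.3 with limma 3.58.1, Benjamini-Hochberg adjustment over all genes tested and a threshold of 0.05. Slopes are on log2 weeks. Alternatives were RLE scaling, no filter, DESeq2 1.42.0, replicate blocks, means of week means, and leaving out single or doubtful libraries. The fits were tested on simulated data: directions were recovered, and more false calls were made than the nominal rate. Leaving out libraries nearer another population and the test of the Il4 slopes were added after the data were seen. Figures used matplotlib 3.10.9.

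The members and gene lists were chosen with earlier results of these data known. Named genes are the members, up to 4 called genes per list with the smallest p, and the 5 genes most like the members, with at least 1 CPM in at least 10 libraries. Cma2, Tpsab1, Slc18a2, Kit, Prss34, Ccr3 and Epx, and Il1rl1 in HPC-1, were picked after their values were seen. The titles with "10k" (2 libraries) were placed at 10 weeks, and 1 HPC-2 library of 3 weeks, labelled untreated, was placed by its title. These belong to the 4 libraries with conflicting labels.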

Additional observations from a re-analysis of the deposited data

Results flagged for a closer look

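In 19 steady-state sets of values, 1 gene in 1 population each, 7 had a library far from the others. Chance flags about 1 in 20 in smooth data, a rate that does not hold where nearly all libraries are at 0, so 7 is not read against it. In HSC, Mcpt8 was at 1.97 CPM in replicate 5 and at 0 in the other libraries. Cpa3 was at 98.9 CPM in HSC replicate 1, with 19.1 CPM in the next library, and this is the HSC library that is near-identical to an HPC-2 library. Fcer1a was at 26.4 CPM in HSC replicate 6, with 4.21 CPM in the next.

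In HPC-1, Fcer1a was at 74.6 CPM in replicate 5, with 12.4 CPM in the next library, and Ms4a2 was at 44.6 CPM in replicate 3, with 16.1 CPM in the next. In HPC-2, Cma1 was at 0.186 CPM in replicate 1 and at 0 in the others. Mcpt8 was at 77.2 CPM in HPC-2 replicate 7, with 26.6 CPM in the next, and both are near-identical to HPC-1 libraries. The causes were not tested.

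The slope of Il4 over the weeks differed between HSC and HPC-2, by 4.39 on the log2 scale per doubling of weeks (edgeR adjusted p = 0.00313).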

How the results depend on the processing

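The calls of Cpa3 and Il4 between HSC and HPC-2 after transplant held in all 8 alternatives and in all 48 fits without 1 library (3 to 3 members called). Ms4a2 was called in each of them too, but it has no counts in HSC, so this adds nothing to its counts. With no filter 5 members were called, Cma1 and Tpsb2 as well. The values of these added genes in HPC-2 rest on 8 weeks replicate 2, which is near-identical to HPC-1 5 weeks replicate 1. In the other transplanted HPC-2 libraries Tpsb2 had no counts and Cma1 at most 0.164 CPM. Il4 between HSC and HPC-2 at steady state was called in 8 of 9 alternatives and all 23 fits without 1 library (1 to 1 members called). No HPC-2 library of steady state had a count of Il4, so these calls add nothing to its counts. DESeq2 called 2 members there, Mcpt8 as well, and the replicate block by description number called 0.

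Other counts moved from 0. In HPC-1 against HSC at steady state, DESeq2, the set without libraries under 10000 genes and the set without libraries nearer another population called 3 members each. The set without near-identical libraries and the replicate block called 1 each (Mcpt8, 10.94 with the block, edgeR adjusted p = 0.0095). The calls of Mcpt8 add nothing to its counts. Of all genes, 160 of 12053 were called without libraries nearer another population and 118 of 11938 without near-identical ones. The shares for the other fits of this comparison are not given here. In HPC-1 against HPC-2 at steady state, DESeq2 and the set without conflicting labels called 1, and those without near-identical libraries or libraries nearer another population 2. These were Il4, and Mcpt8 in the last 2 sets, where 1535 of 11938 and 1691 of 12053 genes were called. Neither member had counts in the HPC-2 libraries of those fits, so the calls add nothing to their counts. In HPC-2 after transplant against steady state, no filter and DESeq2 called 1 and means of week means 2 (Mcpt8 and Tpsb2). Over the weeks, no filter called 1 member in HSC (Mcpt8) and 1 in HPC-2 (Cd200r3), and means of week means called 2 in HPC-2 (Ms4a2 and Il4). Some of these alternatives tested fewer libraries or more genes, and the cause was not tested.

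Leaving out 1 library gave 0 to 1 members over the weeks in HSC. The 1 was Mcpt8, without 8 weeks replicate 2, and its call adds nothing to its counts. Leaving out 1 library also gave 0 to 0 over the weeks in HPC-2, and 0 to 0 for HSC after transplant. It gave 0 to 2 for HPC-2 after transplant (2 without 8 weeks replicate 2) and 0 to 1 for HPC-1 against either population. The Il4 slope difference was 4.12 to 4.93 without 1 library, 3.46 without libraries under 10000 genes (edgeR adjusted p = 0.0817) and 4.38 with the replicate block. The HPC-1 log2 ratio of early to late weeks was 1.62 to 1.87. Descriptions number the libraries in sets of 1 library per population, of the same week or of steady state. Whether a set shares an animal is not given. At steady state, HPC-2 replicate numbers leave these sets from replicate 2 on. Deviations there correlated from -0.068 to 0.61 by replicate number (mean 0.096) and from -0.12 to 0.23 by set (mean 0.040). Of 23 libraries, 12 and 8 correlated best with their own number or set, a hint from the data only. By set, transplanted HSC and HPC-2 had a mean of 0.047. Neither was taken as pairs in the main fits, and sets were not used as a block after transplant. The replicate block changed no other call of a member, and it called 0 genes in all over the weeks in HSC, against 32 without it. Few detected genes limit what a count of 0 shows in HPC-2.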

Other observations

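Cd63, the granule membrane tetraspanin, rose over the weeks in HSC as well, by 0.53 per doubling of weeks (SE 0.09, edgeR adjusted p = 0.0246), from a mean of 540 CPM ± 160 at 3 to 5 weeks (n = 9) to 856 CPM ± 197 at 6 to 16 weeks (SD, n = 15). At steady state Cd63 was at 1002 CPM ± 229 in HSC (SD, n = 8). Ccr3, the eotaxin receptor of eosinophils and basophils, had counts in 3 of 9 HPC-2 libraries of 3 to 5 weeks and in 1 of 15 later ones. It passed the count filter largely through the early weeks where it is high, so its call as lower with time adds nothing to these counts. Srgn, the proteoglycan core protein of granules, had a slope in HSC that was higher than that in HPC-2 by 0.81 (SE 0.16, edgeR adjusted p = 0.00248), where the median gene differed by 0.34. Without libraries nearer another population this was 0.80 (edgeR adjusted p = 0.0524).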
